A study of Homo sapiens with 23 samples.

Results

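Among 78120 H3K27ac intervals shared by both replicates in the lung cancer cell line NCI-H23, 14495 (18.6%) lay away from H3K4me3, carried H4K5acK8ac in both replicates and overlapped no BRD2 peak. These regions are called BRD2-free here, which means only that no BRD2 peak was called on them. They were chosen in steps. The H3K27ac peak lists of both replicates were intersected, and intervals with a gap of 1000 bp or less to an H3K4me3 peak of either replicate were dropped, which left 53254 distal intervals (68.2%). Of those, 18327 overlapped H4K5acK8ac peaks in both replicates by at least 1 bp. BRD2 peaks met 1124 of the 18327 (6.13%) in both replicates and 2708 in 1 replicate only, and the other 14495 (79.1%) were BRD2-free. H4K5acK8ac was present in 1 replicate at 8887 further distal intervals and in neither at 26040. The regions were thus chosen by the measured peaks of H3K27ac, H3K4me3, H4K5acK8ac and BRD2, and values of these 4 are given as description, without a test. Both replicates enter the rule: with the lists of replicate 1 alone it gave 23308 regions, and with those of replicate 2 alone 19267.

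NCI-H23 is an established line of non-small cell lung cancer. The series holds 23 samples: chromatin immunoprecipitation libraries for 11 targets, 2 replicates each, and 1 input, which was not analysed here. Cells were fixed with formaldehyde, and every library has its own list of peaks. The antibodies to H4K5acK8ac (made by the submitters), H3K27ac and H3K4me3 were mouse monoclonals, and those to BRD2, H4K5ac, H4K8ac, H4K12ac, H3K4me1, H3K36me3, H3K9me3 and H3K27me3 are labelled rabbit polyclonals. The treatment protocol names the BET inhibitor JQ1 and its solvent DMSO, but no library is assigned to either, so no treatment was compared. Nothing in the labels says whether replicates are separate cultures, so the spread between replicates may be technical. A p-value over libraries of different marks covers only these libraries, and their spread includes the differences between marks. For H3K9me3 replicate 2 the title and the description disagree on the number, and the title decided.

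H3K27ac marks active promoters and enhancers, and H3K4me3 marks promoters, so H3K27ac away from H3K4me3 is widely used to find active enhancers, which also carry H3K4me1. BRD2 belongs to the BET family, whose paired bromodomains bind acetylated lysines, with a preference for H4 tails acetylated at neighbouring lysines such as lysine 5 and lysine 8. The doubly acetylated tail, H4K5acK8ac, is thus a mark to which BRD2 can bind, and the regions described here carried a peak of that mark without a called peak of the protein. H3K36me3 is laid down along the bodies of transcribed genes, H3K9me3 marks heterochromatin, and H3K27me3 marks Polycomb-repressed chromatin.

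For comparison, 3 sets of distal H3K27ac intervals were used. The first, called BRD2-bound, held 1124 with H4K5acK8ac in both replicates and BRD2 in both. The others were 2708 with H4K5acK8ac in both and BRD2 in 1 replicate, and 26040 without H4K5acK8ac in either. The name BRD2-bound means only called peaks, which need not overlap between replicates. Of the 1124, 931 (82.8%) lay within 1000 bp of a BRD2 region called in both replicates. BRD2-free regions were narrower than either set with BRD2 but wider than distal intervals as a whole, whose median was 360 bp. The median width of BRD2-free regions was 556 bp (quartiles 326 and 1031), with 565 (3.90%) under 200 bp and the widest 10253 bp. The medians were 2065 bp for BRD2-bound regions, 1066.5 bp for those with BRD2 in 1 replicate and 280 bp for those without H4K5acK8ac. Under 500 bp lay 6512 BRD2-free regions (44.9%), from 500 to under 1000 bp 4201 (29.0%), from 1000 to under 2000 bp 2628 (18.1%) and at 2000 bp or more 1154 (7.96%). In BRD2-bound regions the widest class held 51.6%, and in regions without H4K5acK8ac the narrowest held 82.0%. In total the BRD2-free regions covered 12.1 Mb of the 33.1 Mb of distal intervals.

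**Figure D1:**
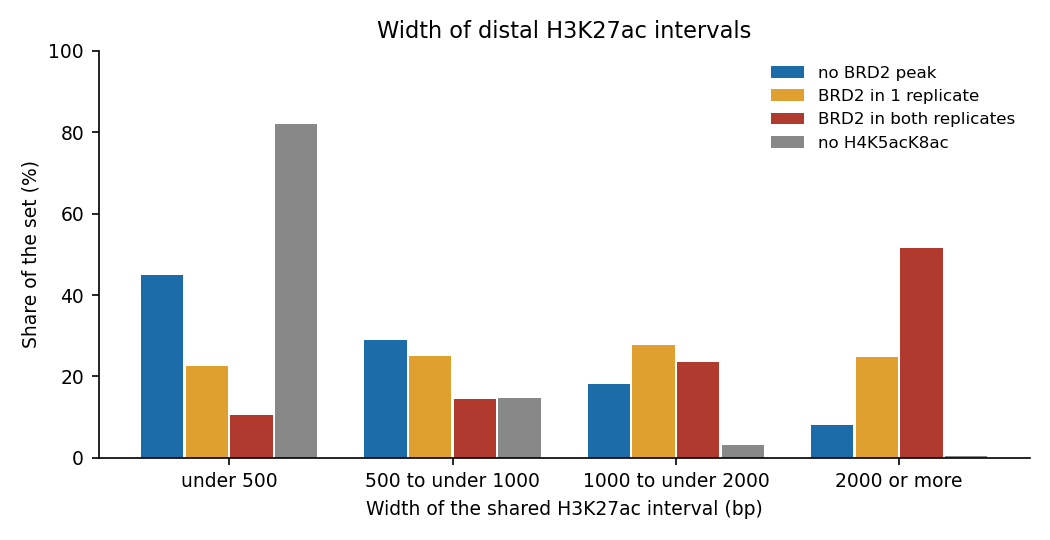
Share of each set of distal H3K27ac intervals (y axis, %) in 4 classes of interval width (x axis, bp); each bar is one set. BRD2-free regions (blue) fall mainly under 1000 bp, with 7.96% at 2000 bp or more, against 51.6% of BRD2-bound regions (red).

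The intervals are not independent sites, because several can lie inside one broad peak. In replicate 1 the median whole H3K27ac peak was 660 bp, the BRD2-free region made up a median of 100% of it, and 4.82% of regions shared a peak with another one. In replicate 2 the median whole peak was 1720 bp, the region made up 43.0% of it, and 4854 regions (33.5%) shared a peak. Replicate 2 therefore drew the same ground as fewer, broader peaks: 11647 distinct peaks against 14138. In that replicate 2048 BRD2-free regions (14.1%) lay in the same H3K27ac peak as a region that carried BRD2, against 102 (0.704%) in replicate 1.

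Of the marks that define the set, H3K27ac stood higher within its lists than H4K5acK8ac. Fold enrichment, the authors' value for a peak over its local background, had a median of 4.78 in replicate 1 and 7.80 in replicate 2 for H3K27ac, at percentiles 71.9 and 78.0 of its lists. For H4K5acK8ac the medians were 5.12 and 4.73, at percentiles 57.1 and 56.2 of their lists. Only 1.86% and 3.02% of BRD2-free regions met an H4K5acK8ac peak among the highest 10% of its list, against 42.4% and 48.9% of BRD2-bound regions, whose median folds were 17.9 and 19.2. Regions with BRD2 in 1 replicate lay between, at 8.53 and 9.14. These folds come from marks that the rule used and show where the set sits, not an independent difference.

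H4K5acK8ac was not always centred on the region, and neither was H3K27ac. The summit of the highest overlapping H3K27ac peak fell inside 93.1% of BRD2-free regions in replicate 1 and 63.2% in replicate 2. For H4K5acK8ac these shares were 77.4% and 72.8%. The summit of the highest overlapping H4K5acK8ac peak fell inside the region in both replicates at 9344 BRD2-free regions (64.5%). At 1613 (11.1%) that peak met BRD2 elsewhere along its length, and at 346 (2.39%) it met H3K4me3. The overlap was as small as 1 bp and under 50 bp at 416 regions (2.87%), with a median of 353 bp. Among the 160 regions whose lower H4K5acK8ac fold of the replicates was 20 or more, 11 held the summit in both replicates, and 150 lay under a peak that met BRD2 elsewhere. At a fold of 10 to under 20 (685 regions) the summit was inside in both replicates at 379 (55.3%), and 260 (37.96%) lay under a peak that met BRD2 elsewhere. The very highest folds of the set thus mostly belonged to peaks whose top lay outside the region.

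The 5 regions with the highest H4K5acK8ac show this. At chr19:2465063-2465683 (hg19, as all coordinates here), 621 bp wide, the H4K5acK8ac folds were 70.4 and 64.2, but the summits lay 2581 and 2579 bp outside, and the nearest BRD2 peak was 230 bp away. H3K27ac there had its own summit inside, at folds of 4.76 and 6.10. At chr17:19654085-19655164 the H4K5acK8ac folds were 60.1 in both replicates, with summits 1135 and 1157 bp outside. The neighbours chr2:228720973-228721261 and chr2:228721332-228721701 lay on one H4K5acK8ac peak, with folds of 61.9 and 54.1 and summits 6542 and 6558 bp from the first and 6102 and 6118 bp from the second. Region chr3:53306058-53306277, at 56.9 and 56.4, had no peak of any single H4 acetylation. H3K27ac summits lay outside the region in replicate 1 at chr17 (1160 bp) and in replicate 2 at chr2 (19292 and 18852 bp) and chr3 (1643 bp). In none of the 5 did all 6 libraries of H4K5ac, H4K8ac and H4K12ac show a peak.

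H4K5ac, detected by an antibody to one of the 2 lysines of the double mark, covered most of the set. It overlapped 12024 BRD2-free regions in replicate 1 (83.0%) and 11947 in replicate 2 (82.4%). In both replicates it was present at 10786 (74.4%, Wilson 95% interval 73.7 to 75.1), where 36% of all distal intervals had it, and in neither at 1310 (9.04%). The replicates gave nearly the same share. The mean was 82.7% ± 0.376 (SD, n = 2), against 99.96% in BRD2-bound regions and 16.3% in regions without H4K5acK8ac.

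H4K8ac, the other lysine of the pair, was present at fewer regions and differed between replicates. It met 8784 BRD2-free regions in replicate 1 (60.6%) and 6524 in replicate 2 (45.0%). The list of replicate 1 held 224726 peaks and that of replicate 2 held 116852, and the part of list length in this gap was not tested. Peaks in both replicates lay at 5246 regions (36.2%; 20.4% of all distal intervals) and in neither at 4433 (30.6%). Against the mean of 52.8% ± 11.0 (SD, n = 2), BRD2-bound regions had 97.2% and regions without H4K5acK8ac 18.6%.

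H4K12ac, an acetylation outside the lysine pair of the selecting antibody, was the least frequent of the 3. It met 6684 BRD2-free regions (46.1%) in replicate 1 and 5830 (40.2%) in replicate 2. Both replicates had it at 4246 (29.3%; 16.3% of all distal intervals), and neither at 6227 (43.0%). BRD2-bound regions had it at 98.6%, those with BRD2 in 1 replicate at 79.8% and those without H4K5acK8ac at 9.59%, so the BRD2-free mean of 43.2% ± 4.17 (SD, n = 2) lay between. Where H4K12ac was present in a BRD2-free region, its median fold was 3.11 and 3.32 in replicates 1 and 2, close to the medians of the whole lists (3.03 and 3.14), while in BRD2-bound regions it was 5.44 and 5.38.

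Taking the 6 libraries of the 3 single acetylations as the units, BRD2-free regions carried a peak less often than BRD2-bound regions in 6 of 6 libraries. The mean share was 59.6% against 98.6%, a difference of -39.1 percentage points ± 18.2 (SD over 6 libraries; range -57.9 to -17.0; exact two-sided sign-flip permutation test, p = 0.0312, adjusted over 2 tests 0.0312). Against regions without H4K5acK8ac the share was higher in 6 of 6 libraries, by 44.7 points ± 16.9 (59.6% against 14.8%; same exact permutation test, p = 0.0312, adjusted 0.0312). H4K5ac and H4K8ac are the lysines of the mark that separates these sets, so nothing is read from that p. For H4K12ac the difference was 35.98 and 31.2 points in replicates 1 and 2. BRD2-bound regions were wider (median 2065 against 556 bp) and higher in H4K5acK8ac (median folds 17.9 and 19.2 against 5.12 and 4.73). Nothing is therefore read from the p of the first comparison either, where H4K12ac differed by -53.0 and -57.9 points. The p of 0.0312 is the smallest that 6 libraries allow. It counts both replicates of 3 antibodies in 1 cell line as units, and with the 3 libraries of either replicate alone the smallest exact p is 0.25. No mark was tested alone, since 2 libraries allow no exact p below 0.5.

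**Figure D2:**
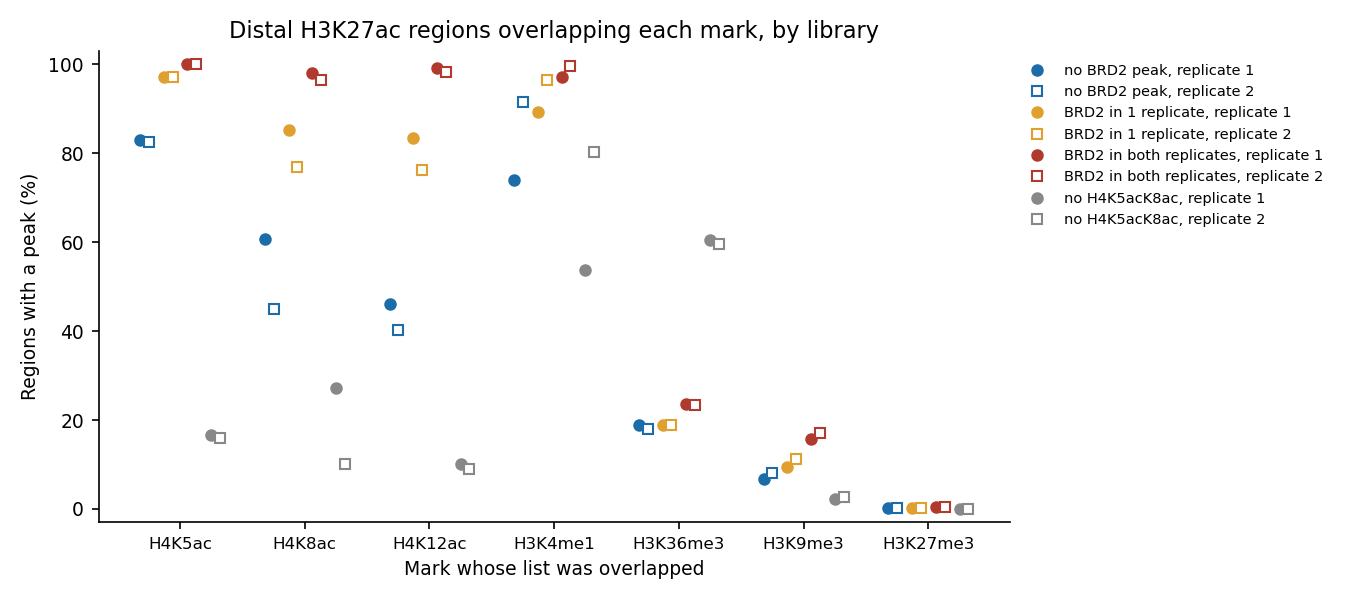
Share of distal H3K27ac regions with a peak (y axis, %) of each of 7 marks that the rule did not use (x axis), for 4 sets of regions; filled circles are replicate 1 and open squares replicate 2. For H4K5ac, H4K8ac and H4K12ac the BRD2-free regions (blue) sit between BRD2-bound regions (red) and those without H4K5acK8ac (grey), whereas H3K36me3 is far higher in the grey set, at 60.5% and 59.6%.

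The single acetylations combined in an uneven way. Counting a mark as present only in both replicates, 2749 BRD2-free regions (18.97%) carried all of H4K5ac, H4K8ac and H4K12ac, with a median width of 894 bp. H4K5ac alone was the most common pattern, at 4642 regions (32.02%, 551 bp). None of the 3 was present in both replicates at 3167 (21.8%, 415 bp). H4K5ac with H4K8ac accounted for 2064 regions (14.2%) and H4K5ac with H4K12ac for 1331 (9.18%). Patterns without H4K5ac were rare: H4K8ac alone had 376 regions, H4K12ac alone 109 and H4K8ac with H4K12ac 57.

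Counted over single libraries, BRD2-free regions spread over the whole scale. Peaks in 0 of the 6 H4 lists were found at 817 regions (5.64%), and peaks in 6 of 6 at 2749 (18.97%), with each count from 2 to 5 holding between 15.6% and 17.3%. BRD2-bound regions had 6 of 6 in 93.7%, those with BRD2 in 1 replicate in 58.6%, and those without H4K5acK8ac in 0.361%. Along this scale the median width of BRD2-free regions went from 391 to 894 bp and H3K4me1 in both replicates from 43.7% to 91.2%, while H3K36me3 in both replicates stayed between 12.2% and 17.4%.

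**Figure D3:**
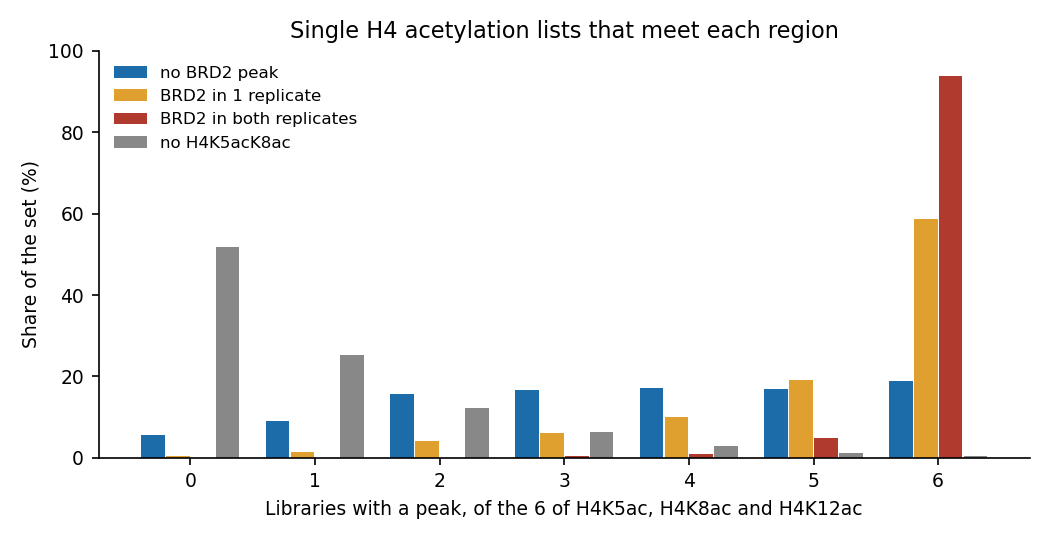
Share of each set (y axis, %) by the number of the 6 H4K5ac, H4K8ac and H4K12ac libraries with a peak on the region (x axis). BRD2-free regions (blue) spread from 5.64% at 0 to 18.97% at 6, whereas 93.7% of BRD2-bound regions (red) have 6.

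H3K4me1, the mark of enhancers, was found on most regions of the set. It met 10709 BRD2-free regions in replicate 1 (73.9%) and 13244 in replicate 2 (91.4%), with lists of 141240 and 204854 peaks. Both replicates had it at 10652 (73.5%; 62.4% of all distal intervals) and neither at 1194 (8.24%). The difference from BRD2-bound regions was -23.3 points (replicate 1) and -8.19 (replicate 2), and averaged -15.7 ± 10.7 (SD, n = 2). From regions without H4K5acK8ac it was 20.2 and 11.1 points. Both directions were shared by the replicates, and were not tested, since no exact p below 0.5 is possible with 2 libraries. At the 1194 regions without H3K4me1 the median width was 344.5 bp, H4K12ac in both replicates fell on 5.44% and H3K9me3 in both on 21.4%.

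All of these shares were higher in wider intervals. From the narrowest to the widest of the 4 classes, the mean share of BRD2-free regions with H4K8ac was 46.2%, 51.6%, 61.3% and 75.4%. For H4K12ac it was 34.5%, 41.0%, 54.8% and 73.2%, and for H3K4me1 73.4%, 85.1%, 94.3% and 99.1%. At equal width the distance from BRD2-bound regions remained for H4K12ac, which lay on 94.9%, 97.8%, 98.3% and 99.7% of those. For H3K4me1 it narrowed to less than 1 point in the widest class, where BRD2-bound regions had 99.8%. Within 1000 to under 2000 bp, the mean difference over the 6 H4 libraries was -29.6 points from BRD2-bound regions and 34.8 points from regions without H4K5acK8ac, with the same direction in 6 of 6 libraries each. This width restriction was added after the data had been seen.

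H4K5acK8ac height moved with the H4 marks too. In regions of 1000 to under 2000 bp whose lower H4K5acK8ac fold was under 5, H4K12ac was present at 42.1% of BRD2-free regions (n = 1422) and at 100% of the 8 BRD2-bound ones. With a fold of 5 to under 10 it was present at 66.8% of BRD2-free regions (n = 1029), 86.8% of those with BRD2 in 1 replicate (n = 368) and 94.7% of BRD2-bound ones (n = 57). With a fold of 10 to under 20 the 3 values were 89.5% (n = 153), 96.2% (n = 213) and 99.3% (n = 135). At matched width and height BRD2-bound regions were thus ahead by 57.9 points under a fold of 5 and by 27.9 points at 5 to under 10. They were ahead by 9.72 points at 10 to under 20. Without the split by height the distance was 43.5 points in this width class, and 55.5 in all regions. In the few regions with a fold of 20 or more, H4K12ac lay on 70.8% of BRD2-free (n = 24) and 99.2% of BRD2-bound ones (n = 64), 28.4 points apart. A further split took regions of all widths with the H4K5acK8ac summit inside in both replicates. H4K12ac then met 36.3% and 31.0% of BRD2-free regions with a fold under 5 (n = 6173), in replicates 1 and 2. It met 72.5% and 64.8% at 5 to under 10 (n = 2781), and 94.5% and 89.2% at 10 to under 20 (n = 379). In BRD2-bound regions the shares were 87.5% and 83.3% (n = 24), 99.4% and 95.7% (n = 163), and 99.6% and 99.8% (n = 456).

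H3K36me3, the mark of transcribed gene bodies, was the mark for which the comparison turned around within all 4 classes of width. It met 2732 BRD2-free regions in replicate 1 (18.8%) and 2605 in replicate 2 (18.0%), was in both at 2244 (15.5%; 36.4% of all distal intervals) and in neither at 11402 (78.7%). Over all widths the share was below that of BRD2-bound regions, at 18.4% against 23.4% (-4.64 and -5.43 points in replicates 1 and 2, mean -5.03 ± 0.557, SD). Within each class of width it was above that of BRD2-bound regions. The shares were 7.06% against 3.39% under 500 bp (118 BRD2-bound regions) and 17.1% against 4.94% from 500 to under 1000 bp (162). They were 33.2% against 8.90% from 1000 to under 2000 bp (264) and 53.6% against 39.3% at 2000 bp or more (580). Split also by the lower H4K5acK8ac fold, regions of 1000 to under 2000 bp kept this order. The shares were 42.5% against 37.5% under 5 (8 BRD2-bound regions) and 22.2% against 10.5% at 5 to under 10 (57). At 10 to under 20 they were 20.6% against 8.52% (135), and at 20 or more 29.2% against 4.69% (64). The share of bases gives the same order without classes: H3K36me3 peaks covered 21.7% and 20.9% of the bases of BRD2-free regions, a mean of 21.3%, against 15.5% in BRD2-bound regions and 17.4% in those with BRD2 in 1 replicate.

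Against regions without H4K5acK8ac the direction was the same in all 4 classes. H3K36me3 met 60.03% of those, a difference of -41.6 points for BRD2-free regions, and within the 4 classes 56.3%, 74.0%, 89.2% and 95.1%. It covered 60.1% of their bases. BRD2-free regions therefore lay on H3K36me3 peaks much less often than distal H3K27ac without the double acetylation, and at equal width more often than BRD2-bound regions. Where it was present, H3K36me3 covered a median of 78.2% and 78.9% of a BRD2-free region and 27.8% of a BRD2-bound one in both replicates. Its median fold was 4.72 and 4.77 in BRD2-free regions, against 8.02 and 7.86 in regions without H4K5acK8ac.

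**Figure D4:**
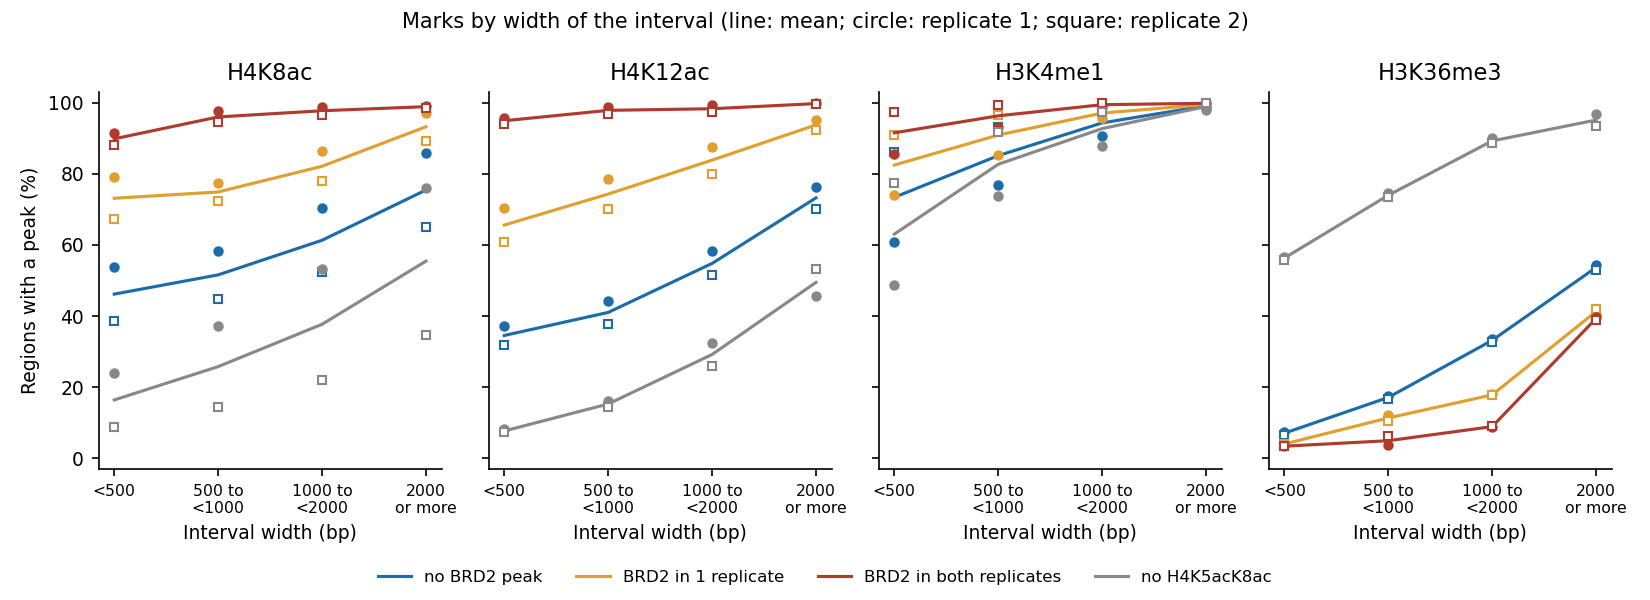
Share of regions with a peak (y axis, %) of H4K8ac, H4K12ac, H3K4me1 and H3K36me3 in 4 classes of interval width (x axis, bp); lines are means of the replicates, circles replicate 1 and squares replicate 2. For H3K36me3 the BRD2-free line (blue) lies above the BRD2-bound line (red) in each class, with 33.2% against 8.90% from 1000 to under 2000 bp, and for H4K12ac it lies below.

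The 2244 BRD2-free regions with H3K36me3 in both replicates were wide, with a median of 1214.5 bp against 482 bp for those with it in neither. Their H3K27ac was higher, with median folds of 7.84 and 11.9 against 4.37 and 6.91, and their H4K5acK8ac was not, at 5.06 and 4.20 against 5.13 and 4.93. Compared within width classes below 2000 bp, they carried the single H4 acetylations less often. H4K12ac in both replicates was at 10.4% against 21.97% under 500 bp, 17.3% against 28.8% from 500 to under 1000 bp, 34.0% against 43.9% from 1000 to under 2000 bp, and 61.0% against 63.9% at 2000 bp or more. H4K8ac followed the same order in the 3 narrower classes, with 11.0% against 31.3% in the narrowest, and the opposite order in the widest, with 62.4% against 59.3%. All 5 of H4K5ac, H4K8ac, H4K12ac, H3K4me1 and H3K36me3 lay in both replicates on 465 regions (3.21%; median width 2239 bp), and the 4 without H3K36me3 on 1912 (13.2%; 768.5 bp).

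Repressive marks were uncommon. H3K9me3 met 993 BRD2-free regions (6.85%) in replicate 1 and 1164 (8.03%) in replicate 2, with both at 727 (5.02%; 3.48% of all distal intervals). The mean was 7.44%, against 16.5% in BRD2-bound regions and 2.46% in regions without H4K5acK8ac. Here too the order changed with width: under 2000 bp BRD2-free regions had more, with 5.51%, 8.43% and 8.83% against 2.97%, 3.40% and 6.63% in BRD2-bound regions, and at 2000 bp or more they had less, with 11.6% against 27.3%. H3K9me3 covered a median of 54.0% and 62.1% of a BRD2-free region that it met, and 13.7% and 17.0% of a BRD2-bound one. H3K27me3 was in both replicates at 9 BRD2-free regions (0.0621%; 0.0601% of all distal intervals), from lists of 213028 and 277462 peaks.

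The 727 regions with H3K9me3 in both replicates differed from the rest of the set in other marks. H3K4me1 in both replicates lay on 40.9% of them, against 76.6% of those with H3K9me3 in neither. H3K36me3 in both lay on 32.7% against 14.4%, and H4K12ac on 21.7% against 30.2%, while H4K5ac was similar at 78.8% and 74.1%. Their median width was 741 bp against 543 bp. At the other end, 135 BRD2-free regions (0.931%), with a median width of 300 bp, had no peak in any of the 14 lists that the rule did not use.

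By distance, the regions were far from promoters marked by H3K4me3 and often within a few kilobases of a BRD2 peak. The median gap to the nearest H3K4me3 peak was 23724 bp (quartiles 7486.5 and 64501), and 17.6% lay within 5000 bp. Other distal sets were far from H3K4me3 too. Their medians were 22790.5 bp with BRD2 in 1 replicate, 20865 bp in BRD2-bound regions and 16863 bp without H4K5acK8ac. The regions just inside the limit had gaps of 1001, 1003 and 1004 bp, and those just outside 1000, 999 and 998 bp. The nearest BRD2 peak of either replicate was at a median of 4937 bp, with 2085 regions (14.4%) within 1000 bp and 159 within 100 bp. For regions without H4K5acK8ac that median was 7114.5 bp, with 8.15% within 1000 bp. From BRD2-free regions the nearest BRD2 region called in both replicates was at a median of 30763 bp. Many BRD2 peaks were weak, with 64.7% of the peaks of replicate 1 and 28.1% of replicate 2 under a -log10 q of 1.3, that is with q above 0.05. Counting only BRD2 peaks at or above it added 1245 regions to the 14495, for 15740, and left 610 of the 1124 BRD2-bound regions. Requiring no BRD2 peak within 1000 bp kept 12410 (85.6%).

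Distance from H3K4me3 went with small differences in these shares. At gaps of over 1000 to 2000 bp (828 regions) H4K12ac lay on a mean of 44.5%, at 2000 to 5000 bp (1716) on 45.5% and beyond 5000 bp (11951) on 42.7%, with H3K36me3 on 16.2%, 20.7% and 18.2%. The 1231 intervals with H4K5acK8ac in both replicates, no BRD2 and a gap of 1 to 1000 bp, which the rule dropped, had H4K12ac on 51.3%, H3K4me1 on 88.0% and H3K36me3 on 13.3%.

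Across the genome the regions were spread unevenly. On autosomes their density ran from 2.36 per Mb on chromosome 4 to 10.2 on chromosome 17, with a median of 4.61. Chromosomes 20 (9.54) and 19 (8.20) were also dense, and X held 1.56 per Mb. Chromosome 1 held the largest number, 1565 (10.8%). This followed the density of all distal H3K27ac intervals (Pearson 0.925 and Spearman 0.937 over 22 autosomes, as a description; BRD2-free regions are part of that set).

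As a share of distal intervals, the BRD2-free regions were lowest where H3K36me3 was most common. They made up 17.9% of distal intervals on chromosome 19, where 58.4% of distal intervals carried H3K36me3, and 32.5% on chromosome 18, where 28.1% did. Over the 22 autosomes the share ran against that of H3K36me3, with Pearson -0.823 and Spearman -0.770. The points share the same libraries, and the distal intervals include the BRD2-free ones, so these are given without a p. Within the set, H3K36me3 ranged from 11.1% of regions on chromosome 14 to 32.6% on chromosome 15, H4K12ac from 26.9% to 56.0% and H3K4me1 from 73.5% to 89.0%.

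**Figure D5:**
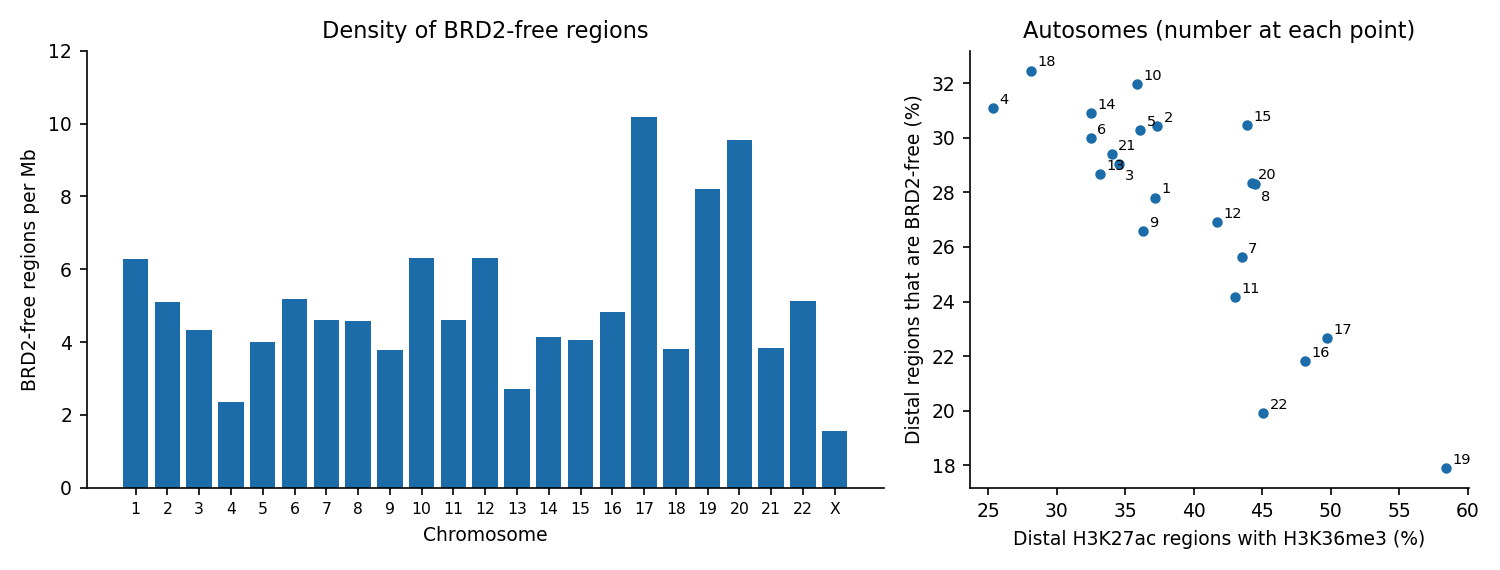
Left, BRD2-free regions per Mb (y axis) on each chromosome (x axis); right, each autosome by the share of its distal H3K27ac intervals with H3K36me3 (x axis, %) and the share that are BRD2-free (y axis, %). Density peaks on chromosome 17 at 10.2 per Mb, and chromosome 19 stands lowest on the right at 17.9%.

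Many regions stood in groups. The nearest other BRD2-free region was at a median of 2006 bp, with 43.2% within 1000 bp. Regions without H4K5acK8ac, a larger set, lay closer to their own kind, at a median of 983 bp with 50.3% within 1000 bp. The nearest of the 1124 BRD2-bound distal regions was at a median of 245764 bp. Joining regions with gaps of up to 10000 bp gave 7869 groups, of which 4938 held 1 region (34.1% of the set) and 1342 held 3 or more, with 6379 regions (44.0%) between them. Of 3108 windows of 1 Mb, 2002 (64.4%) held at least 1 region, and the fullest 311 windows held 7206 regions (49.7%).

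The groups and windows named next were picked after their values were seen and carry no test. The largest group, chr12:76259663-76367475, held 37 regions; H4K5ac was in both replicates on 33 of them, H4K8ac on 17, H3K4me1 on 10, H4K12ac on 4 and H3K36me3 on none. The densest window, chr10:3000001-4000000, held 141 BRD2-free regions among 322 distal intervals. There 46 regions (32.6%) had H3K9me3 in both replicates, against 4.74% of all other BRD2-free regions, H3K4me1 in both lay on 26.2% against 74.0%, and H4K12ac on 14.2% against 29.4%. It contained 2 of the 4 largest groups, with 30 regions at chr10:3515502-3627458 and 26 at chr10:3857553-3926212. Of the 727 regions with H3K9me3 in both replicates, 100 (13.8%) were on chromosome 10, which held 5.91% of all BRD2-free regions. The 46 of this window are among those 100. Window chr15:71000001-72000000, with 85 regions, differed from the chr10 window in carrying H3K36me3 on a mean of 85.9%.

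Single regions show the range of the set. The widest, chrX:45631993-45642245 (10253 bp), had H3K27ac folds of 26.7 and 32.9 and H4K5acK8ac folds of 12.2 and 5.93, with H3K4me1, H4K5ac and H4K8ac in both replicates and no H4K12ac peak in either. The next, chr6:126225030-126233987 (8958 bp), had peaks of H4K12ac (3.98 and 4.04) and of H3K36me3 (11.4 and 11.8). The third, chr5:106799608-106807506 (7899 bp), had H4K12ac at 4.22 and 4.18 and lay 82578 bp from H3K4me3.

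Among regions with H4K5ac, H4K8ac, H4K12ac, H3K4me1 and H3K36me3 all in both replicates, over the 435 of 465 not on chromosome 8, the highest H4K12ac stood at chr7:1513331-1513890 and its neighbour chr7:1513949-1514961, which shared their H4K12ac, H4K5acK8ac and H3K36me3 peaks but not their H3K27ac peak of replicate 1. H4K12ac there had folds of 11.0 and 9.33, H4K5acK8ac 13.4 and 12.8, and H3K36me3 13.7 and 10.3, with the nearest BRD2 peak 11868 and 12486 bp away. At chr16:75267489-75268905 (1417 bp) H4K12ac was at 6.09 and 7.77, H4K5acK8ac at 11.8 and 19.8 with its summit inside in both replicates, H3K4me1 at 8.19 and 17.3, and the nearest BRD2 peak 10285 bp away. These 3 regions were picked for peaks of all single H4 acetylations, so carrying them is no difference from other regions. At chr7:1513331-1513890 the H4K5acK8ac summits lay 136 and 188 bp outside, and at its neighbour they lay inside. None of the 3 had a BRD2 peak within 10000 bp.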

How the data were processed

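Peaks of 22 libraries were used as deposited, 1 list per library in 10 columns. BWA, MACS2 and build hg19 are named in the submitters' processing notes, with no versions, settings or filters; the control used is not given in the sources used here. The deposited lists give a fold enrichment (a ratio to local background), -log10 p and -log10 q, a score, and the summit offset; fold and q only described or filtered peaks within a list. The authors' lists hold no read counts, so depth is unknown. No peaks within a list overlapped.

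Lists were intersected with Python 3.11.15, numpy 2.4.6 and pandas 2.3.3 (scipy 1.17.1 for Wilson intervals, at 95%, covering counting error only). A region met a list if at least 1 bp overlapped, and the replicates' shares are given as mean ± SD. Region and list choices were made with earlier results of these data known. Named regions are the 5 with highest H4K5acK8ac, the 3 widest and the 3 with highest H4K12ac among those with all 5 marks, without chromosome 8. The functions were tested on simulated data and recovered the planted regions. Over 21 pairs of marks, correlations of the replicate deviations of same-numbered libraries lay between -0.0135 and 0.0122. A correlation leaves out any shift common to a replicate number, so it cannot show whether such libraries share a batch. No hg19 annotation or genome was used here, so no gene or sequence is given.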

Additional observations from a re-analysis of the deposited data

How the results depend on the processing

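Of 78 recomputed values over 13 settings, 55 were counted as unchanged. Of the settings, 2 were added after seeing the data (summit inside, and 1000 to under 2000 bp in every set). For H4, unchanged meant the same direction and the same side of 0.05 in the sign-flip test. For width and the H3 marks it meant a move within the SD of the replicates. These limits were wide. The 21287.5 regions of the replicate block, against 14495, counted as unchanged. So did an H3K4me1 difference of -5.12 points at 1000 to under 2000 bp, against -15.7 (SD 10.7). The H3K36me3 difference from BRD2-bound regions was the least stable. It turned to 0.0264 points with no BRD2 peak within 1000 bp. In that setting BRD2-bound meant a BRD2 peak within 1000 bp in both replicates (1696 regions). At a -log10 q of at least 5 in all lists the difference was 4.63, with 139 BRD2-bound regions. With at least 50% of the interval covered it was 3.58, and at 1000 to under 2000 bp it was 24.3. The difference moved to -6.35 with BRD2 peaks at a -log10 q of at least 1.3, -6.40 with all lists so and -6.00 beyond 5000 bp from H3K4me3. At 200 bp or wider it was -4.41, and with the H4K5acK8ac summit inside -0.804. The cause of these changes was not tested.

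Leaving out each replicate in turn gave 19267 to 23308 regions with median widths of 567 to 761 bp, and H4 differences of -36.7 to -31.7 points from BRD2-bound regions and 40.8 to 42.0 from regions without H4K5acK8ac, both at an exact p of 0.25, the smallest 3 libraries allow. H3K4me1 ranged from -20.8 to -9.55 and H3K36me3 from -4.56 to -3.62. The correlations of replicate deviations do not settle whether the replicate numbers pair the libraries. Choosing regions within each number as a replicate block gave a mean of 21287.5 regions and a width of 664 bp. The H4 differences were then -34.2 and 41.4, with H3K4me1 at -15.2 and H3K36me3 at -4.09. Region number and width became 8404 and 1090 bp at a -log10 q of at least 5, 9344 and 753 bp with the summit inside and 2628 and 1335 bp in the width class, all by construction. In every setting both H4 differences and that of H3K4me1 kept their direction. Depth is unknown, so the absence of a BRD2 peak does not show the absence of BRD2.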
